A study of Mus musculus with 22 samples.

Results

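Hypothalamic nuclei taken on Day 1, 24 h after an intracerebroventricular (icv) injection, were compared between 3 mice given FGF1 and 3 mice given vehicle. The members were chosen by the deposited sample and treatment labels, and they were 13206 of the 24965 nuclei of the series, 8620 of them from FGF1 mice and 4586 from vehicle mice. All 6 were male ob/ob mice, which lack leptin, aged 11 weeks. The FGF1 group received 3 µg of the recombinant human growth factor into the lateral ventricle, and the vehicle group received buffered saline and was pair-fed to the intake of the FGF1 group. Nuclei came from a frozen hypothalamic punch of 1 mouse per library and their RNA was counted as unique molecular identifiers (UMIs) in droplets. Each nucleus carried a cell type label made by the authors, and counts were summed per mouse, once over all nuclei and once per label.

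FGF1 binds receptor tyrosine kinases of the Fgfr family, which signal through ERK and induce feedback inhibitors such as the Sprouty and Spred proteins. The wall of the third ventricle is made of tanycytes and ependymal cells, which face the injected fluid. Tanycytes send a long process into the hypothalamus and carry few motile cilia, whereas ependymal cells carry motile cilia that move cerebrospinal fluid. Astrocytes clear glutamate and potassium and can take a reactive state with intermediate filaments, cytokine signalling and matrix remodelling. Agrp neurons of the arcuate nucleus drive feeding.

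The 6 mice held 1081 to 4973 nuclei and 3529889 to 12612245 UMIs. Median UMIs per nucleus were 2029, 2816 and 2577 in FGF1 mice 1, 2 and 3 and 3776, 3178.5 and 3189 in vehicle mice 1, 2 and 3. The groups did not overlap, and the exact two-sided permutation p was 0.1, the smallest that 3 against 3 mice can give. FGF1 mouse 1 stood apart by its cytosolic ribosomal protein UMIs, at 2.52% of all its UMIs, against 0.885% to 1.54% in the other mice. Nuclei above the study's limit of 5% mitochondrial or ribosomal UMIs numbered 654, of which 452 came from that mouse and 129 from vehicle mouse 2. Of 13132 distinct barcodes, 74 occurred in more than 1 library. Each deposited batch held 1 FGF1 and 1 vehicle mouse.

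Genes were called in 9 of the 18 labels with enough nuclei, among them tanycytes, ependymal cells and astrocytes. A gene was called at a false discovery rate (FDR) under 0.05 by edgeR's quasi-likelihood test on summed counts, with Benjamini-Hochberg adjustment over all genes tested in a label. In tanycytes 323 of 3534 genes were called (9.14%), 190 higher (5.38%) and 133 lower (3.76%) with FGF1. Ependymal cells had 277 of 1456 (19.0%), with 148 higher (10.2%) and 129 lower (8.86%). Astrocytes had 94 of 6063 (1.55%), and here 84 were higher (1.39%) and 10 lower (0.165%). Of the astrocyte nuclei 74.2% in FGF1 mouse 1 and 64.2% in vehicle mouse 2 exceeded the 5% limit, against 5.77% to 14% in the other mice. With nuclei above the limit removed 203 astrocyte genes were called, 73 of them among the 94. Vascular and leptomeningeal cells (VLMC) had 24 of 1061 (2.26%), oligodendrocytes 16 of 7192 (0.222%) and the COP label 4 of 4485 (0.0892%). The authors' COP label takes in oligodendrocyte precursors as well as committed ones, and in it the 4 precursor markers summed to 1225 to 4314 CPM (counts scaled to a common library size) per mouse against 150 to 446 CPM for the 3 committed precursor markers. The 5 oligodendrocyte markers summed in the astrocyte label to 230 to 1113 CPM with FGF1 and 698 to 2987 CPM with vehicle. In oligodendrocytes they summed to 994 to 2026 CPM and 2064 to 2792 CPM. The part of oligodendrocyte RNA in the astrocyte calls was not tested. Of the neuron labels, n29.Nr5a1/Adcyap1 had 10 of 8407 (0.119%), Agrp neurons (n13.Agrp/Gm8773) 7 of 2350 (0.298%) and n06.Oxt 1 of 3478 (0.0288%). The labels differ in nuclei and in genes tested, and their counts were not tested against each other. Genes at an unadjusted p under 0.05 made up 23.5% of those tested in tanycytes, 31.5% in ependymal cells, 9.68% in astrocytes, 10.7% in n29.Nr5a1/Adcyap1 and 10.4% in Agrp neurons, so few called genes in a neuron label do not show that little changed there. Leaving out vehicle mouse 1 gave 72 called genes in tanycytes, 175 in ependymal cells and none in astrocytes, oligodendrocytes, COP, n29.Nr5a1/Adcyap1, Agrp neurons and n06.Oxt. Leaving out vehicle mouse 2 or FGF1 mouse 2 gave 204 and 192 in tanycytes and 34 and 38 in astrocytes. In COP, n29.Nr5a1/Adcyap1 and n06.Oxt none was called when any single vehicle mouse was left out, whereas n29.Nr5a1/Adcyap1 had 101 without FGF1 mouse 1. Without vehicle mouse 1 the 94 astrocyte genes all kept their direction and an unadjusted p under 0.05, as did the 312 called tanycyte genes still tested. These genes were picked by their calls in the same mice, so that outcome was nearly fixed in advance and is no support. With the deposited batch as a block, an alternative chosen after seeing the data, 105 of the 323 tanycyte genes, 244 of the 277 ependymal genes, 34 of the 94 astrocyte genes, 2 of the 10 n29.Nr5a1/Adcyap1 genes and none of those in oligodendrocytes and COP were still called.

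edgeR called 0 genes in the 9 remaining labels, a share of 0% in each. The unmapped neurons, nuclei that the authors could not place in a published neuron type, were the deepest of these with 13681 genes tested. There 988 genes had an unadjusted p under 0.05, and DESeq2 called 27. The other labels at 0 were Glu5 (172 genes at an unadjusted p under 0.05), n16.Rgs16/Vip (154), microglia (198), Glu4 (53), Glu6 (76), n23.Sst/Unc13c (110), n02.Gm8773/Tac1 (34) and GABA15 (72). DESeq2 called 1 gene in Glu5 and 0 in the 7 others. The plot of called genes per label gives these counts beside the genes tested.

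**Figure D1:**
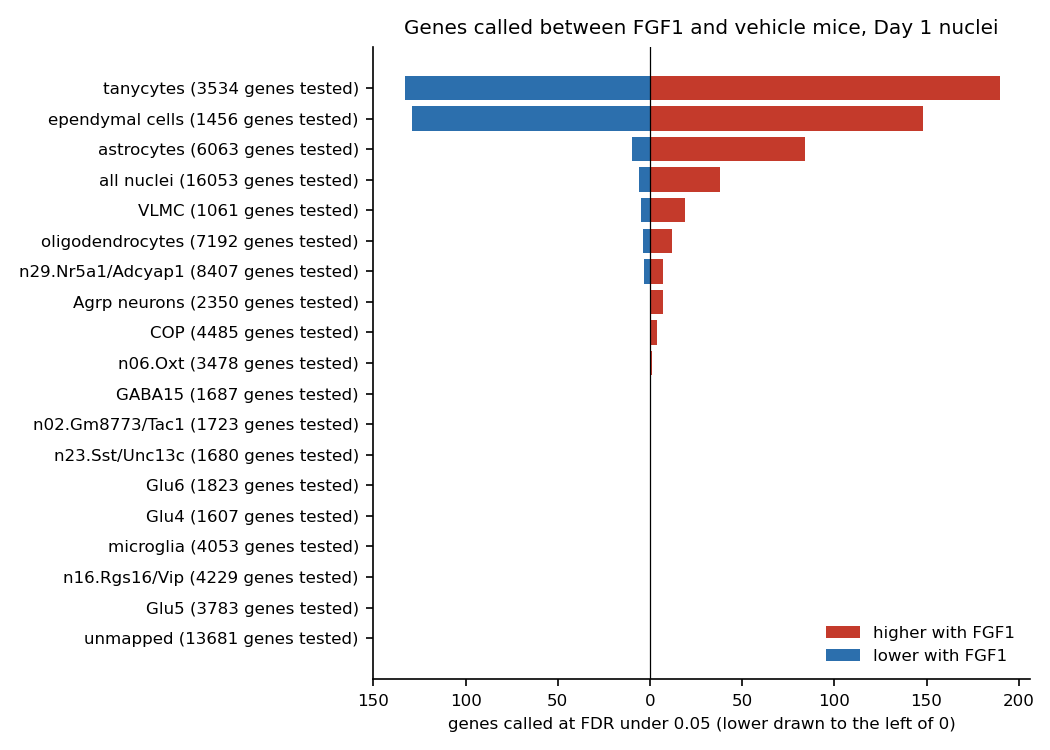
Genes called higher (red, right of 0) and lower (blue, left of 0) with FGF1 in each label and over all nuclei, with the number of genes tested beside the label. Bars are counts at an FDR under 0.05, and tanycytes (190 higher, 133 lower) and ependymal cells (148 higher, 129 lower) hold the longest bars in both directions.

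Summed over all nuclei, 44 of 16053 genes were called (0.274%), 38 higher (0.237%) and 6 lower (0.0374%). Without vehicle mouse 1 none was called, without vehicle mice 2 and 3 and FGF1 mice 2 and 3 in turn 1, 2, 13 and 4 were called, with the deposited batch as a block none was called, and with the replicate number as a block 9 of the 44 still were. In all of these fits all 44 kept their direction and an unadjusted p under 0.05. The 44 were picked by their calls in the same mice, so this too was nearly fixed in advance. In such a sum, fewer nuclei of a type and less RNA per nucleus cannot be told apart. Levels are counts scaled to a common library size (CPM, with TMM scaling), given below in the order of mice 1, 2 and 3. Cd44, the hyaluronan receptor (chromosome 2, 102811141 to 102901665 in GRCm38), stood at 53.7, 51.8 and 43.6 CPM with FGF1 and at 3.49, 3.97 and 4.01 CPM with vehicle (log2 fold change 3.70 ± 0.22 SE, FDR 0.0028). Hmga2, a chromatin protein of growing cells, stood at 22.8, 29.5 and 40.6 CPM against 0.918, 0.818 and 1.42 CPM (4.90 ± 0.37, FDR 0.0056). The pseudokinase gene Trib1 rose by 4.03 ± 0.30 (FDR 0.0056). These 3 were named from called genes without overlap between the groups, and 15.9% of all genes tested over all nuclei did not overlap. Tgm1, a cross-linking enzyme of epithelia, reached 11.5 to 18.2 CPM with FGF1. None of its UMIs came from a vehicle mouse, which makes it at least 87.4-fold higher against a floor of 3 counts over the group (FDR 0.020). Among the 6 genes called lower were Etnppl, a lipid enzyme of astrocytes (-3.01 ± 0.33, FDR 0.025), the cilium gene Dynlrb2 (-2.35 ± 0.30, FDR 0.042) and the myelin gene Mog (-2.08 ± 0.28, FDR 0.045). Mog stood at 8.08, 15.1 and 8.89 CPM against 47.9, 46.2 and 42 CPM, and oligodendrocyte nuclei made up 4.02% ± 0.721 (SD, n = 3) of nuclei with FGF1 and 6.21% ± 0.898 with vehicle. The part of that share in the Mog level was not tested.

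Several genes were called higher in 4 or more labels. Serpina3n, a secreted protease inhibitor of reactive astrocytes, was called higher in 6 labels (astrocytes, oligodendrocytes, COP, tanycytes, ependymal cells and Agrp neurons) of 9 in which it was tested. S100a10, the partner of annexin A2, was called in 5 of 9, and the membrane protein gene Tm4sf1, the S100 gene S100a6 and the intermediate filament gene Vim in 4 labels each. The labels come from the same 6 mice, so their calls are not independent.

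Free RNA in the droplets can add UMIs of a gene to nuclei that do not express it. Free RNA itself was not measured. The levels in unmapped neurons, where none of these genes was called, are given for comparison with labels other than ventricular cells and astrocytes. Serpina3n stood in unmapped neurons at 47.8, 49.5 and 29.2 CPM with FGF1 and 2.08, 6.32 and 6.81 CPM with vehicle, and in oligodendrocytes at 75.2, 50.8 and 49 CPM with FGF1. S100a6 stood there at 172, 61 and 72.3 CPM against 7.5, 21.9 and 9.08 CPM, and in oligodendrocytes at 182, 77.3 and 169 CPM with FGF1. Vim reached 72, 37.2 and 41.8 CPM in unmapped neurons and 94.6, 50.8 and 43.6 CPM in oligodendrocytes, and S100a10 reached 101, 34.8 and 33 CPM in unmapped neurons and 72.2, 30.4 and 33.8 CPM in n29.Nr5a1/Adcyap1. The ranges of the FGF1 values of each of these pairs overlapped. Within each FGF1 mouse, oligodendrocytes held the higher value for Serpina3n, S100a6 and Vim. S100a10 in n29.Nr5a1/Adcyap1 was below the unmapped neurons in FGF1 mice 1 and 2. The calls in these labels are not read as expression by those cells, and expression and free RNA were not told apart. In COP, S100a10 stood at 169, 83.5 and 65 CPM with FGF1, a range that overlapped the unmapped neurons though each mouse was higher in COP. Serpina3n there (65 to 177 CPM) lay above the unmapped neurons. Serpina3n in Agrp neurons (284 to 708 CPM) and these genes in astrocytes, tanycytes and ependymal cells lay, with FGF1, above every unmapped neuron value. How far free RNA enters any of these values was not tested.

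Tm4sf1 stood in tanycytes at 1326, 1165 and 1155 CPM with FGF1 and 36.1, 46.8 and 17.9 CPM with vehicle (log2 5.04 ± 0.48, FDR 2.6e-04). In astrocytes it stood at 223, 208 and 374 CPM against 0, 7.74 and 13.1 CPM (5.21 ± 0.68, FDR 0.0042). Ependymal cells already carried it with vehicle, at 889, 901 and 744 CPM, and reached 1490, 1305 and 2324 CPM (1.00 ± 0.30, FDR 0.028). Its levels after FGF1 thus overlapped between tanycytes and ependymal cells, and of these 3 labels its change was smallest where the vehicle level was highest. S100a10 in ependymal cells was even across mice, at 1847, 1874 and 1811 CPM against 88.9, 155 and 85.9 CPM (4.03 ± 0.37, FDR 1.8e-06). Serpina3n in astrocytes stood at 982, 1131 and 661 CPM against 10.2, 32.9 and 39.2 CPM (5.05 ± 0.70, FDR 0.0057).

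In GRCm38, Serpina3n lies on chromosome 12 (104406729 to 104414329, plus strand), Tm4sf1 on chromosome 3 (57285611 to 57301988, minus strand), S100a10 on chromosome 3 (93555080 to 93564643, plus strand) and S100a6 on chromosome 3 (90612882 to 90624181, plus strand). The 250 bases before the RefSeq start of 3 of them are shown 5′ to 3′ on the gene's strand, because these genes rose together in several labels. They are chr12:104406458-104406707 for Serpina3n, chr3:57301989-57302238 for Tm4sf1 and chr3:90612644-90612893 for S100a6 (GRCm38.p6).
Serpina3n: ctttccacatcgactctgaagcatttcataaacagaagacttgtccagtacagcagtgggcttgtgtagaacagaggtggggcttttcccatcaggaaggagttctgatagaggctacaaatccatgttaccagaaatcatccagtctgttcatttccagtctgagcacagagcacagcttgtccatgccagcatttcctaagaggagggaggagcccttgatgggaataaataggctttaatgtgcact
Tm4sf1: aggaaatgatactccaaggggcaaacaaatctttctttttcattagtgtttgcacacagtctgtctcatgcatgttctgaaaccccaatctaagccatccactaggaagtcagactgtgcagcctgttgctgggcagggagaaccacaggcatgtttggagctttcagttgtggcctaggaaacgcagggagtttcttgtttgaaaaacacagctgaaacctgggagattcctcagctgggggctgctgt
S100a6: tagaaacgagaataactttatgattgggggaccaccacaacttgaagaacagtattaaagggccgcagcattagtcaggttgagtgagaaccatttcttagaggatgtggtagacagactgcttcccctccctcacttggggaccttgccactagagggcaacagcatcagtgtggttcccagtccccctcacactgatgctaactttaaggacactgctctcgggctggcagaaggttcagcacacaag
Together with the 50 bases after the start, these windows were searched on both strands for an AP-1 motif (TGANTCA), a cAMP response element (TGACGTCA), a STAT motif (TTCNNNGAA) and an ETS motif (CCGGAAGT). None of the 4 motifs was found in the 3 windows. Of 32851 RefSeq promoter windows of the same length, 7.81%, 1.79%, 8.3% and 3.89% held them.

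Nnat, A330033J07Rik, Etnppl and Mro were each called lower in 3 labels, of 18, 11, 4 and 5 in which they were tested. In every label tested each was fitted below 0, and Nnat lay there between -0.24 (Glu6) and -4.45 (ependymal cells) on the log2 scale. In most labels the groups overlapped for Nnat, and in Glu6 its sign turned in 2 of 12 alternatives. In unmapped neurons it stood at 495, 96.6 and 90 CPM with FGF1 and 487, 603 and 321 CPM with vehicle. In n16.Rgs16/Vip it stood at 5411, 1040 and 996 CPM against 4254, 5043 and 3326 CPM, so FGF1 mouse 1 was not low there. Nnat, an imprinted small membrane protein gene (chromosome 2, 157560078 to 157562522), stood in tanycytes at 551, 209 and 201 CPM with FGF1 and 7058, 7843 and 5364 CPM with vehicle (-4.34 ± 0.52, FDR 5.4e-04). In ependymal cells it stood at 506, 285 and 239 CPM against 8272, 7585 and 6872 CPM (-4.45 ± 0.40, FDR 1.8e-06). Every FGF1 mouse lay far below every vehicle mouse in both labels. Nnat lies inside Blcap on the other strand. Etnppl fell in tanycytes (-3.74 ± 0.56, FDR 0.0017), ependymal cells (-3.97 ± 0.74, FDR 0.0036) and astrocytes (-2.99 ± 0.49, FDR 0.012). A330033J07Rik, antisense over Id4, fell in astrocytes (-4.50 ± 0.69, FDR 0.011) and tanycytes (-5.06 ± 0.52, FDR 2.6e-04), and in ependymal cells stood 41.1 times lower (95% counting interval 13.7 to 202, FDR 1.8e-06). The sources used here name Cell Ranger with default settings and do not spell out how strand was handled, so the division of reads between Id4 and A330033J07Rik is uncertain.

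**Figure D2:**
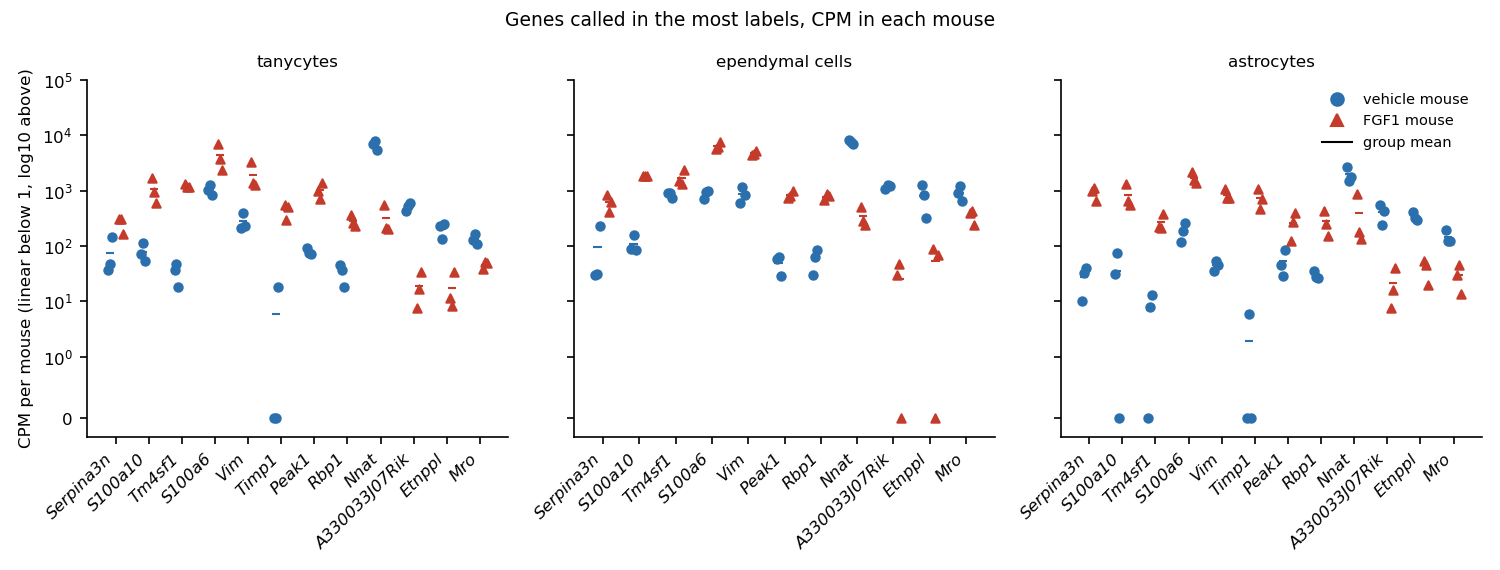
CPM of the genes called in the most labels, in tanycytes, ependymal cells and astrocytes. Each point is 1 mouse (blue circles vehicle, red triangles FGF1), short lines are group means, and the y axis is linear below 1 CPM and log10 above. Genes not tested in a label are absent, and Nnat in tanycytes drops from 5364 to 7843 CPM with vehicle to 201 to 551 CPM with FGF1.

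The 36 gene lists group genes by function, and not all of them are described below. A list that is described is given by its called members and, in most cases, by the median log2 fold change of its tested members. Over all tested genes that median lay between -0.05 and 0.03 in every label. A gene is tested only with enough counts in enough mice, so members at 0 in both groups drop out and a member can enter through the group where it is high. Counts of tested members are therefore descriptions and not evidence about the list. They stand beside shares of all genes called higher and lower of 5.38% and 3.76% in tanycytes, 10.2% and 8.86% in ependymal cells and 1.39% and 0.165% in astrocytes. The heat map of programs by label gives both values.

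**Figure D3:**
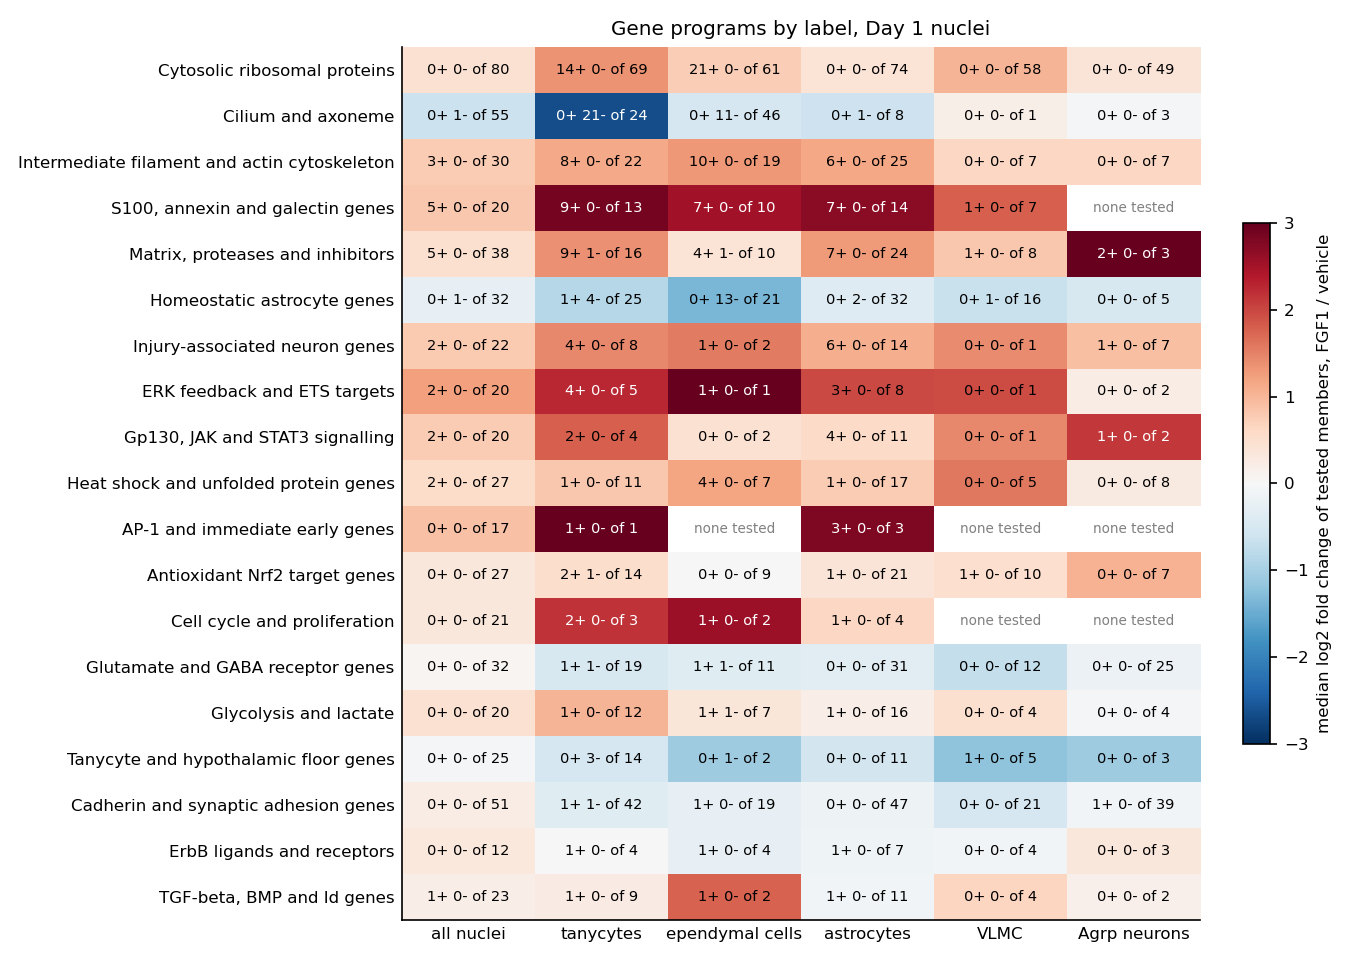
Median log2 fold change (FGF1 over vehicle) of the tested members of a gene list, as color, in all nuclei and 5 labels. Only the lists with the most calls in tanycytes, ependymal cells and astrocytes together are drawn, and lists with fewer or no calls there are left out. Cells print the members called higher (+) and lower (-) of those tested, for example 21 lower of 24 cilium genes in tanycytes and 9 higher of 13 S100, annexin and galectin genes.

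The receptors themselves were not called. Counting the sum over all nuclei and the labels, Fgfr1 was tested in 10 sets of nuclei, Fgfr2 in 19 and Fgfr3 in 4, and they had no FDR below 0.12. Fgfr1 in astrocytes stood at 176, 165 and 100 CPM against 66.1, 58.1 and 39.2 CPM (1.43 ± 0.43, FDR 0.18), a gap without overlap that missed the threshold. Fgfr2 in tanycytes stood at 374, 453 and 502 CPM against 741, 468 and 449 CPM (-0.34 ± 0.37, FDR 0.64), and the groups overlapped. Fgfr3, the receptor typical of astrocytes, stood in that label at 420, 301 and 227 CPM against 290, 194 and 222 CPM (0.44 ± 0.47, FDR 0.96). Of the ligands, Fgf2 rose in astrocytes from 10.2 to 19.6 CPM to 75.1 to 107 CPM (2.52 ± 0.45, FDR 0.019), though it shares sequence with Nudt6 on the other strand.

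Of 21 genes listed downstream of ERK 5 were tested in tanycytes, and 4 of them were called higher and 0 lower (median 2.25). They were the feedback inhibitors Spry2 and Spred2, the early transcription factor Egr1 and the cyclin Ccnd1. Spry2 stood at 215, 268 and 234 CPM against 36.1, 37.4 and 89.7 CPM (2.25 ± 0.45, FDR 0.0074). In astrocytes Spry2 (2.17 ± 0.45, FDR 0.039), Egr1 (4.46 ± 0.74, FDR 0.014) and Ccnd1 (3.32 ± 0.70, FDR 0.044) made up the 3 called of 8 tested. Ccnd1 was the 1 tested member in ependymal cells, with 1 UMI in the vehicle group and a ratio of 53.1 (95% counting interval 9.15 to 2136, FDR 1.0e-04).

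Of 22 AP-1 and immediate early genes listed 3 were tested in astrocytes, and these were called higher, beside 1.39% of all genes of the label. Over all nuclei 17 were tested and 0 called, and in unmapped neurons 7 were tested and 0 called. The tested members differ between these sets and can enter through the group where they are high, so the counts are not compared. The AP-1 gene Jun stood in astrocytes at 206, 95.8 and 60.1 CPM against 10.2, 1.94 and 0 CPM, a ratio of 43.6 (95% counting interval 14.7 to 213, FDR 0.012). Fos (2.41 ± 0.49, FDR 0.033) and the zinc finger factor Klf6 (2.81 ± 0.47, FDR 0.013) rose in the same label. Jun was also called higher in tanycytes. Hbegf, an EGF receptor ligand, rose in astrocytes (4.0 ± 0.62, FDR 0.011). It was also called in tanycytes, with a ratio of 53 (95% counting interval 14.5 to 441, FDR 0.0017), and in ependymal cells, with a ratio of 62.8 (10.9 to 2518, FDR 5.2e-05). Smad3, which carries TGF-beta signals, rose in the same 3 labels by 2.96, 2.70 and 2.61 on the log2 scale (FDR 0.0067, 5.9e-04 and 0.015).

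Signalling through gp130, the shared receptor of the interleukin 6 family, was represented by its receptors, a ligand and a feedback gene. In astrocytes 4 of 11 tested members were called higher and 0 lower (median 0.57). Socs3, the feedback inhibitor (chromosome 11, 117966079 to 117970047), stood at 187, 144 and 114 CPM against 0, 1.94 and 0 CPM, a ratio of 136 on 1 vehicle UMI (95% counting interval 24.2 to 5392, FDR 0.0029). The oncostatin M receptor gene Osmr stood at 207, 229 and 187 CPM against 15.3, 17.4 and 6.53 CPM (3.84 ± 0.48, FDR 0.0035). The ligand gene Clcf1 (ratio 42.5, FDR 0.011) and the STAT3 target Sbno2 (3.15 ± 0.62, FDR 0.030) were the others. In tanycytes Socs3 (ratio 14.5, 95% counting interval 4.79 to 72, FDR 0.0046) and Osmr (2.74 ± 0.61, FDR 0.015) were 2 called of 4 tested. Stat3 itself rose over all nuclei (1.5 ± 0.21, FDR 0.046), in oligodendrocytes (1.97 ± 0.30, FDR 0.018) and in COP (2.17 ± 0.37, FDR 0.039). These were the 2 labels with a call for Stat3 of 17 in which it was tested, and it was not called in astrocytes or tanycytes.

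The called S100, annexin and galectin genes were all higher with FGF1. Of 20 listed, 9 of 13 tested were called higher in tanycytes (median 2.86), 7 of 10 in ependymal cells (2.53) and 7 of 14 in astrocytes (2.70), and none was called lower. S100b, a marker of mature astrocytes, lay below 0 in the same 3 labels (log2 -0.34, -0.30 and -0.12) without being called. Anxa2, which binds membranes together with S100a10, stood in ependymal cells at 3039, 3179 and 3554 CPM against 415, 684 and 344 CPM (2.76 ± 0.34, FDR 3.7e-05). The galectin gene Lgals1 in tanycytes stood at 1228, 494 and 620 CPM against 0, 37.4 and 35.9 CPM (5.08 ± 0.69, FDR 0.0013). FGF1 mouse 1 was the highest for Lgals1, and the groups did not overlap. Nor did they for 322 of the 323 called tanycyte genes, beside 27.8% of all genes tested in this label. The 323 were picked by their calls in the same mice, so that count was nearly fixed in advance and is no support.

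Cytoskeletal genes were called higher for 8 of 22 tested in tanycytes (median 1.14), 10 of 19 in ependymal cells (1.30) and 6 of 25 in astrocytes (1.15), with none lower. Vim, the filament of reactive and immature glia (chromosome 2, 13573927 to 13582826), stood in astrocytes at 1075, 729 and 735 CPM against 35.6, 54.2 and 45.7 CPM (4.20 ± 0.60, FDR 0.0057). In ependymal cells Vim stood at 4469, 4532 and 5161 CPM against 593, 1181 and 830 CPM (2.44 ± 0.34, FDR 1.0e-04). The progenitor filament gene Nes rose in tanycytes (2.26 ± 0.45, FDR 0.0081), ependymal cells (3.43 ± 0.57, FDR 5.4e-04) and astrocytes (ratio 15.1, 95% counting interval 4.99 to 74.8, FDR 0.015). With nuclei above the study's limit removed 3 of 18 tested cytoskeletal genes were called in tanycytes, and without vehicle mouse 1 it was 0 of 22, with medians of 0.83 and 1.04. The filamin gene Flnc, which cross-links actin, rose in astrocytes (4.27 ± 0.58, FDR 0.0052).

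Matrix genes, proteases and their inhibitors were called higher for 9 and lower for 1 of 16 tested in tanycytes (median 1.38), for 4 and 1 of 10 in ependymal cells (0.40) and for 7 and 0 of 24 in astrocytes (1.28). Timp1, a metalloprotease inhibitor (chromosome X, 20870166 to 20874735), stood in astrocytes at 1062, 474 and 701 CPM against 0, 5.81 and 0 CPM, a ratio of 235 (95% counting interval 80.2 to 1140, FDR 0.0029). In tanycytes Timp1 stood at 551, 293 and 502 CPM against 0, 0 and 17.9 CPM, a ratio of 121 (21.5 to 4801, FDR 5.4e-04). It overlaps Syn1, a neuronal gene on the other strand. The plasminogen activator receptor gene Plaur rose in tanycytes to 151 to 219 CPM (FDR 0.0013), with 1 UMI in the vehicle group and a ratio of 48.7 (8.52 to 1948). The hyaluronan receptor gene Cd44 rose in tanycytes (3.57 ± 0.51, FDR 0.0016), ependymal cells (2.62 ± 0.54, FDR 0.0026) and astrocytes (4.61 ± 0.63, FDR 0.0052). Sparcl1, a synaptogenic matrix protein gene, was the exception that fell, in tanycytes (-1.33 ± 0.38, FDR 0.047) and ependymal cells (-2.53 ± 0.37, FDR 1.5e-04).

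Genes of the motile cilium were called lower in both ventricular labels, for most tested members in tanycytes and a minority in ependymal cells. In tanycytes 21 of 24 tested were called lower and 0 higher (median -2.65, of 60 listed). Of the 24, 22 did not overlap between the groups, and 27.8% of all genes tested in this label did not. A cilium gene could pass the low-count filter through the vehicle mice alone, so these counts are a description and no support. Without vehicle mouse 1, 13 of 27 were called. The dynein heavy chain gene Dnah12 (chromosome 14, 26693274 to 26891703) stood at 15.1, 16.8 and 16.7 CPM against 343, 253 and 197 CPM (-4.0 ± 0.48, FDR 5.4e-04). Cfap43 and Cfap126, of the axoneme, fell by 3.60 each on the log2 scale (FDR 0.0010 and 0.0013), and the adenylate kinase gene Ak9 fell by 4.05 (FDR 0.0013). In ependymal cells, which carry the cilia, 11 of 46 tested were called lower and none higher (median -0.51), beside 8.86% of all genes of the label called lower. The other 35 were not called, and 5 of the 46 were fitted above 0, among them the ciliary factor gene Rfx2 (0.54). There Dnah12 stood at 775, 925 and 1435 CPM against 4181, 3419 and 2606 CPM (-1.71 ± 0.34, FDR 0.0019), and Ccdc153 at 238, 142 and 273 CPM against 1305, 1523 and 1231 CPM (-2.65 ± 0.34, FDR 5.2e-05). The 5 ependymal markers summed to 88.2 to 113 CPM with FGF1 and 308 to 406 CPM with vehicle in tanycytes, and to 934 to 1758 CPM and 2535 to 3745 CPM in ependymal cells, with none at 0. The 5 include ciliary genes, and how far ependymal RNA or nuclei within the tanycyte label enter these values was not tested.

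Of 32 genes listed for resting astrocytes 21 were tested in ependymal cells, and 13 of them were called lower and 0 higher (median -1.36). The glutamate transporter gene Slc1a3 stood there at 715, 593 and 342 CPM against 2520, 1772 and 2176 CPM (-1.95 ± 0.32, FDR 4.9e-04), and the gap junction gene Gja1 at 268, 119 and 171 CPM against 801, 591 and 830 CPM (-2.0 ± 0.38, FDR 0.0012). Neither overlapped. Tanycytes had 4 lower and 1 higher of 25 (median -0.85), among them Glul, the glutamine synthetase gene (-1.71 ± 0.42, FDR 0.022), while Clu, a secreted chaperone gene, rose (1.66 ± 0.42, FDR 0.027). Between ependymal cells and astrocytes no gene was called for a difference in its change. Astrocytes themselves had 2 lower and 0 higher of 32 (median -0.39), namely Etnppl and Mro (-2.23 ± 0.48, FDR 0.045). Astrocyte markers summed to 484 to 888 CPM with FGF1 and 1913 to 2691 CPM with vehicle in ependymal cells, to 1101 to 1802 CPM and 2482 to 4254 CPM in tanycytes, and to 2566 to 3615 CPM and 3390 to 6039 CPM in astrocytes, with none at 0. Of these 5 markers, 2 are the genes named here, and the part of astrocyte RNA in the ventricular labels was not tested.

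Tanycyte genes were called lower for 3 of 14 tested in tanycytes and higher for 0 (median -0.51), beside 3.76% of all genes of the label called lower. They were Ntrk2, a neurotrophin receptor gene, at 1073, 1006 and 904 CPM against 3100, 3089 and 2619 CPM (-1.56 ± 0.37, FDR 0.019), the axon guidance gene Slit2 (-1.70 ± 0.40, FDR 0.019) and the Wnt inhibitor gene Frzb (-2.15 ± 0.46, FDR 0.011). The 5 tanycyte markers summed to 620 to 1008 CPM with FGF1 and 939 to 1358 CPM with vehicle in this label, so the label's own markers were present in both groups and overlapped. In ependymal cells they summed to 107 to 233 CPM and 258 to 489 CPM.

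Cytosolic ribosomal protein genes were called higher for 14 of 69 tested in tanycytes (median 1.35) and 21 of 61 in ependymal cells (0.73), and for 0 of 74 in astrocytes (0.42), with none called lower. Rplp0, of the ribosomal stalk, stood in tanycytes at 759, 520 and 402 CPM against 127, 140 and 161 CPM (2.01 ± 0.39, FDR 0.0067). Rpsa in ependymal cells stood at 1936, 1519 and 1367 CPM against 415, 404 and 515 CPM (1.84 ± 0.30, FDR 4.9e-04). FGF1 mouse 1 was the highest for both. In tanycytes the median ribosomal share of UMIs per nucleus was 6.45%, 3.35% and 2.7% with FGF1 and 1.85%, 1.93% and 1.72% with vehicle, and 76.5% of this label's nuclei in FGF1 mouse 1 exceeded the study's limit. In astrocytes that share was 6.07%, 2.11% and 1.68% with FGF1 and 1.66%, 5.52% and 1.24% with vehicle, so 1 mouse of each group was high, and the list's astrocyte median was -0.50 without FGF1 mouse 1 and 1.2 without vehicle mouse 2. Without FGF1 mouse 1, 3 of 69 were called in tanycytes (median 0.76) and 11 of 64 in ependymal cells (0.77), and without vehicle mouse 1 the counts were 0 of 70 (1.37) and 8 of 65 (0.75). With nuclei above the limit removed, 7 of 68 (0.86) and 19 of 60 (0.70) were called.

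**Figure D4:**
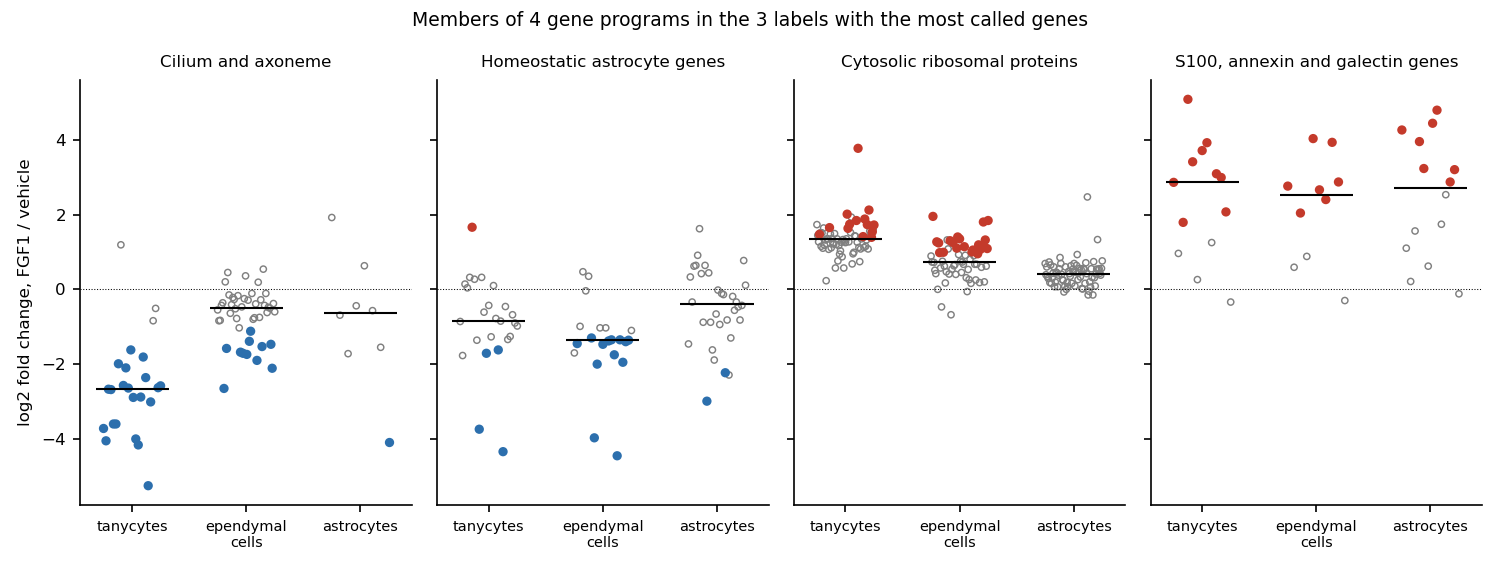
Log2 fold change (FGF1 over vehicle) of every tested member of 4 gene lists in tanycytes, ependymal cells and astrocytes. Each point is 1 gene, filled where called (red higher, blue lower) and open grey where not, and black lines are medians, which in tanycytes are -2.65 for cilium genes and 2.86 for S100, annexin and galectin genes.

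Chaperone genes rose in ependymal cells for 4 of 7 tested (median 1.18), led by the cytosolic chaperone genes Hspa8 (2.10 ± 0.34, FDR 4.7e-04) and Hsp90ab1 (1.58 ± 0.29, FDR 9.9e-04). In astrocytes Hspb1, a small heat shock protein gene, stood at 455, 274 and 180 CPM against 0, 3.87 and 0 CPM, a ratio of 153 (95% counting interval 42.2 to 1269, FDR 0.0029). Of the antioxidant list, tanycytes had 2 higher (Akr1b8 and Txn1) and 1 lower (Prdx6) of 14, beside shares of 5.38% and 3.76% over all its genes. Of energy and lipid genes tanycytes had, beside 5.38% of all its genes called higher, 1 higher of 12 glycolysis genes (Eno1, 1.49 ± 0.42, FDR 0.042), 1 higher of 9 sterol and fatty acid synthesis genes (Msmo1, 2.01 ± 0.48, FDR 0.020) and 0 of 63 genes of oxidative phosphorylation (median 0.62). Genes of injured neurons were called higher for 4 of 8 in tanycytes and 6 of 14 in astrocytes, and several of those called are genes of reactive glia or early response as well (Serpina3n, Socs3, Jun). Sprr1a of this list had no UMI in vehicle tanycytes and stood at 2875, 260 and 218 CPM with FGF1 (FDR 0.0065). With the counts of each group pooled it was at least 154-fold higher, a bound that rests largely on FGF1 mouse 1 and is smaller for the other mice.

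In Agrp neurons (227 nuclei, 15 to 96 per mouse) all 7 called genes were higher with FGF1, and the neuropeptides were not among them. Kcnq3, a subunit of the M-type potassium channel (chromosome 15, 65986387 to 66286642), stood at 878, 1107 and 1066 CPM against 217, 224 and 243 CPM (2.16 ± 0.30, FDR 0.0098). Its partner gene Kcnq5 stood at 789, 1093 and 1493 CPM against 240, 316 and 104 CPM (2.20 ± 0.38, FDR 0.041). These were the 2 called of 13 potassium channel genes tested (median 0.19). Pcdh15, a protocadherin gene, stood at 4197, 4204 and 4406 CPM against 1176, 1253 and 832 CPM (1.95 ± 0.28, FDR 0.0098), with little spread in either group. Serpina3n (708, 476 and 284 CPM against 0, 13.2 and 69.3 CPM, ratio 35.9, FDR 0.016), the cytokine feedback gene Socs2 (3.04 ± 0.55, FDR 0.045), the metalloprotease gene Adam12 (3.58 ± 0.67, FDR 0.045) and Wbscr17, a glycosyltransferase gene (2.18 ± 0.41, FDR 0.045), completed the set.

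Agrp stood at 40430, 13760 and 13255 CPM with FGF1 and at 5813, 21047 and 16666 CPM with vehicle (0.64 ± 0.53, FDR 0.75), and Npy at 40471, 10775 and 13042 CPM against 7115, 21271 and 21135 CPM (0.38 ± 0.55, FDR 0.89). Both ranged more within a group than between groups. Of the feeding list 5 of 33 genes were tested and 0 called. The 4 Agrp neuron markers were present in all 6 mice, at 18256 to 51612 CPM with FGF1 and 9477 to 28529 CPM with vehicle. The GABA15 label also carried them, at 8156 to 24068 CPM and 7981 to 18681 CPM. In its fit, of 2 mice per group, 0 of 1687 genes were called. Astrocyte markers in this label summed to 56.9 to 127 CPM with FGF1 and 25.7 to 253 CPM with vehicle and so overlapped, and oligodendrocyte markers to 76.3 to 145 CPM and 256 to 392 CPM. Leaving out vehicle mouse 1 or FGF1 mouse 2, or requiring 20 nuclei per mouse, left 0 called genes in Agrp neurons, and the other single mice left 1 to 22.

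**Figure D5:**
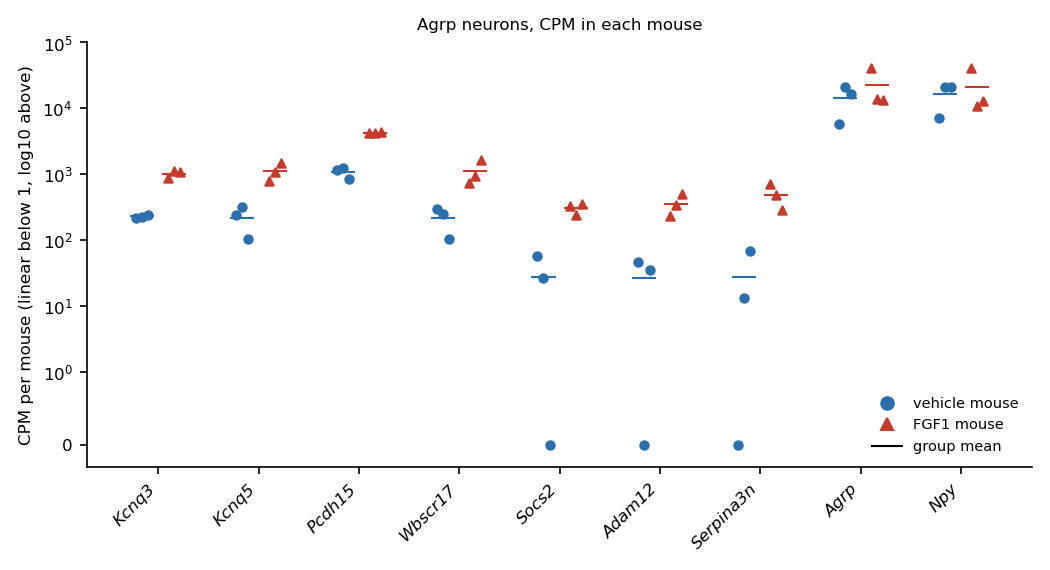
CPM in Agrp neurons of the 7 called genes and of Agrp and Npy. Each point is 1 mouse (blue circles vehicle, red triangles FGF1), lines are group means, and the y axis is linear below 1 CPM and log10 above. The groups separate for Kcnq3 (878 to 1107 against 217 to 243 CPM) and overlap for Agrp.

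In n29.Nr5a1/Adcyap1 neurons 7 genes rose and 3 fell. Etv5, an ERK-responsive transcription factor gene, stood at 70.3, 53.2 and 63.8 CPM against 13, 6.11 and 12.6 CPM (2.61 ± 0.40, FDR 0.024), and Nptx2, a synaptic pentraxin gene, at 111, 132 and 82.6 CPM against 20.5, 9.17 and 22 CPM (2.74 ± 0.37, FDR 0.013). Pgm2l1 (1.49 ± 0.23, FDR 0.024) and Zmym1 (2.99 ± 0.36, FDR 0.013) rose too, as did S100a10 (4.06 ± 0.60, FDR 0.024), whose FGF1 values overlapped those of unmapped neurons. Gfap, the astrocyte filament gene, also rose (3.17 ± 0.52, FDR 0.033). Astrocyte markers in this label summed to 63.6 to 113 CPM with FGF1 and 106 to 157 CPM with vehicle. They do not include Gfap and so do not gauge its free RNA, whose part in this value was not tested. The ventromedial markers Nr5a1 and Fezf1 summed to 31.8 to 105 CPM and 28.5 to 45.3 CPM.

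VLMC, fibroblast-like cells of vessels and meninges, entered with 2 FGF1 mice (12 and 28 nuclei, mouse 2 with 6 being left out) and 3 vehicle mice (12 to 19 nuclei). Of the 24 genes called 19 were higher and 5 lower, and of 8 matrix genes tested Timp1 alone was called. Ccl2, a monocyte chemokine gene (chromosome 11, 82035571 to 82037453), stood at 3281 and 1215 CPM in FGF1 mice 1 and 3 and had no UMI in vehicle mice, at least 50.1-fold higher (FDR 1.2e-10). Igfbp5, an IGF binding protein gene, stood at 9982 and 11447 CPM against 334, 653 and 96.5 CPM (4.86 ± 0.84, FDR 1.4e-05), and Spp1, the osteopontin gene, at 40207 and 13333 CPM against 191, 816 and 290 CPM (5.96 ± 1.11, FDR 5.6e-05). Timp1 stood at 5235 and 5404 CPM against 23.8, 40.8 and 0 CPM, a ratio of 216 (59.1 to 1791, FDR 1.4e-10). The matrix metalloprotease gene Mmp3 was at least 20-fold higher against vehicle at 0 (FDR 3.4e-05). The transporter genes Slc6a13 (16.7 times lower, 95% counting interval 4.42 to 141, FDR 0.0051) and Slc6a20a (-3.26 ± 0.79, FDR 0.0061) fell. The proteoglycan gene Dcn, a marker of the label, rose (3.32 ± 0.72, FDR 0.0012), and the 4 VLMC markers summed to 3852 and 1837 CPM in FGF1 mice 1 and 3 and to 534, 1022 and 500 CPM with vehicle. Neuron markers in this label summed to 4100 and 3627 CPM against 6045, 4652 and 4293 CPM. Astrocyte markers summed to 1449 and 774 CPM against 1725, 1335 and 2502 CPM, above the VLMC markers in every vehicle mouse and below them in both FGF1 mice. In the mouse left out the VLMC, neuron and astrocyte sums were 1402, 10513 and 981 CPM. The part of the label's makeup in its called genes was not tested. With the deposited batch as a block 3 of the called VLMC genes were still called, and without vehicle mouse 2 it was 4.

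In the oligodendrocyte label, which also carried neuron markers (values below), 12 genes rose and 4 fell. The alarmin gene Il33 stood at 269, 316 and 441 CPM against 64.9, 37.7 and 51.9 CPM (2.74 ± 0.33, FDR 0.0079), and Gjb1, a connexin gene of oligodendrocytes, at 75.2, 84 and 92.6 CPM against 8.84, 13.1 and 4.33 CPM (3.04 ± 0.43, FDR 0.013). Of 18 tested members of the myelin list, which does not hold Gjb1, Mog (-1.56 ± 0.27, FDR 0.036) and Aspa, which splits N-acetylaspartate (-1.83 ± 0.33, FDR 0.038), fell and 0 rose. The 5 oligodendrocyte markers, Mog among them, summed in this label to 1408, 2026 and 994 CPM with FGF1 and 2064, 2076 and 2792 CPM with vehicle, and the 3 committed precursor markers to 101, 214 and 144 CPM against 57.5, 52 and 85.5 CPM. Neither sum overlapped between the groups, while the 4 precursor markers did (507 to 654 CPM and 525 to 734 CPM). The part of the label's makeup in the Mog and Aspa values was not tested. In COP the 4 called genes were Stat3, Zmym1 (2.87 ± 0.44, FDR 0.039), Serpina3n (3.73 ± 0.62, FDR 0.039) and S100a10 (ratio 19.4, FDR 0.039). Precursor markers in COP summed to 2196, 3091 and 4314 CPM against 2099, 1225 and 1773 CPM, also without overlap, and committed precursor markers overlapped. With the deposited batch as a block 0 of the 16 oligodendrocyte genes and 0 of the 4 COP genes were still called. All kept their direction and an unadjusted p under 0.05, which is no support because they were picked by their calls in the same mice. Neuron markers in oligodendrocytes, COP and microglia summed to 14420 to 20460 CPM, near the 19334 to 23746 CPM of unmapped neurons. In the oligodendrocyte label the 3 GABA neuron markers summed to 219 to 273 CPM, and in unmapped neurons to 260 to 331 CPM. The glutamatergic marker Slc17a6 stood at 32.6 to 94.8 CPM and 59 to 82.8 CPM. How far neuron RNA or nuclei enter the calls of the oligodendrocyte and COP labels was not tested.

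Label shares of a mouse's nuclei were compared for 23 labels by exact two-sided permutation. The smallest raw p was 0.1, the smallest that 3 against 3 mice can give, so no share could pass the threshold (smallest adjusted p 0.511). Shares did not overlap for oligodendrocytes, n16.Rgs16/Vip (2.04% ± 0.392 with FGF1 and 3.8% ± 0.437 with vehicle, SD, n = 3), n06.Oxt (0.918% ± 0.471 and 2.13% ± 0.395) and GABA15 (0.469% ± 0.0475 and 0.878% ± 0.121). Glu5 held the higher share with FGF1 (6.51% ± 2.88 and 2.41% ± 1.79), with overlap between the groups. Its difference was 2.8 to 5.65 percentage points over single left-out mice. Tanycytes held 2.11% ± 0.365 and 1.99% ± 0.531, ependymal cells 0.962% ± 0.628 and 1.18% ± 0.554, and astrocytes 5.64% ± 1.87 and 5.10% ± 1.27.

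The difference of the FGF1 effect between labels was tested with the mouse as a block. Tanycytes and astrocytes differed for 10 of 5710 genes (0.175%), and for none without vehicle mouse 1, vehicle mouse 3 or FGF1 mouse 1 in turn. Serpina3n rose less in tanycytes than in astrocytes by 3.06 ± 0.61 on the log2 scale (FDR 0.039), and Cdh13, a cadherin gene, rose more by 2.10 ± 0.46 (FDR 0.048). Timp3 differed by 2.25 ± 0.40 (FDR 0.023), with 1.38 in tanycytes and -0.83 in astrocytes. Between ependymal cells and astrocytes 0 of 5108 genes were called (0%), with 287 at an unadjusted p under 0.05 and 3 called by edgeR after RLE scaling. Agrp neurons and unmapped neurons differed for 52 of 11677 genes (0.445%), and for 12 without vehicle mouse 1 and 16 to 20 without vehicle mouse 2, FGF1 mouse 1 or FGF1 mouse 2. Among the 52 were Kcnq3 (2.04 ± 0.32, FDR 6.5e-07), Pcdh15 (1.46 ± 0.28, FDR 3.0e-04), Adam12 (3.01 ± 0.60, FDR 7.4e-04) and Kcnq5 (1.59 ± 0.32, FDR 0.0012), each with the larger rise in Agrp neurons. In unmapped neurons Kcnq3 changed by 0.12 and Kcnq5 by 0.52 on the log2 scale, neither of them called.

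The same interaction was tested against Day 5, where 2 FGF1 and 2 vehicle mice gave nuclei. Over all nuclei 1 of 17617 genes was called (0.00568%), Hmga2, with 4.91 on Day 1 and -0.50 on Day 5 (difference 5.41 ± 0.54, FDR 0.022), and it was lost without vehicle mouse 1, vehicle mouse 2 or FGF1 mouse 2. In tanycytes 8 of 6295 were called (0.127%), all with the lower value on Day 1, among them Dnah12, Dynlrb2 and Cfap126 of the cilium list. Single left-out mice gave 2 (vehicle mouse 1 or FGF1 mouse 2) to 19 (FGF1 mouse 1). Dnah12 changed by -4.0 on Day 1 and 0.56 on Day 5 (-4.56 ± 0.83, FDR 0.030). A single Day 5 vehicle mouse reached 10 tanycyte nuclei, with 14, so its spread was taken from the other mice. In astrocytes 0 of 8872 (0%) and in Agrp neurons 0 of 2874 (0%) were called. Unadjusted p-values under 0.05 numbered 689 and 153, and without the low-count filter 152 and 2 genes were called.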

How the data were processed

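Single-nucleus libraries of hypothalamus were made by the authors with 10x Genomics 3′ chemistry and aligned and counted with Cell Ranger 1.2 on GRCm38 (mm10), introns included. The deposited values were counts (UMIs) per gene and nucleus, filtered and labelled by the authors in Seurat, for 20668 genes. The authors' filter of 400 to 4000 genes per nucleus and of 5% mitochondrial and ribosomal UMIs was stated, and 654 Day 1 nuclei lay above the latter in the deposited table. Doublets were called neither by the authors in these nuclei nor here, and 300 nuclei with the authors' filtered label entered only the sum over all nuclei.

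Counts were summed per mouse over all nuclei and per label, keeping mice with at least 10 nuclei of a label and labels with at least 2 such mice per group. filterByExpr removed low genes, TMM gave the scaling, and FGF1 was tested against vehicle with edgeR 4.0.16 (robust quasi-likelihood F test, R 4.3.3) with Benjamini-Hochberg adjustment over all genes of a fit. DESeq2 1.42.0 was an alternative, limma 3.58.1 was loaded with edgeR, and permutation tests used scipy 1.17.1. SE is the log2 fold change over the square root of F. A gene at 0 in a group was set against a floor of 3 counts over that group, and ratios with 1 to 3 counts carry a 95% interval that covers counting error only. Depth was 3529889 to 12612245 UMIs per mouse. The tests were tried on simulated counts with known changes.

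Genes were named by rule: called genes of smallest p without overlap (8 higher and 4 lower, or up to 5 in small labels), up to 4 called members of each list (or the 2 of highest CPM), the genes called in the most labels, and the FGF receptors, Agrp and Npy. Members and lists were chosen with earlier results of these data known. Each label comes from the same 6 mice, which are separate animals. Results for some genes are not reported here.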

Additional observations from a re-analysis of the deposited data

Results flagged for a closer look

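The following differences of the FGF1 effect passed the test of the difference itself (edgeR's quasi-likelihood interaction, FDR under 0.05). All values are log2 differences, and no cause was tested. Between Day 1 and Day 5 over all nuclei, Hmga2 differed by 5.41. In tanycytes the Day 1 effect lay below the Day 5 effect for 3300002A11Rik (-9.07), A330033J07Rik (-5.41), Ttc21a (-6.68), Dynlrb2 (-6.09), Dnah12 (-4.56), Dnaic1 (-5.88), Cfap126 (-4.34) and Nek5 (-4.90), with 1 Day 5 vehicle mouse in the fit.

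Between tanycytes and astrocytes on Day 1 the effect was larger in tanycytes for Timp3 (2.25), Cdh13 (2.10), Inpp5f (2.49) and Cadps (2.03). It was lower in tanycytes for 6330403K07Rik (-2.57), Serpina3n (-3.06), Prdx6 (-2.07), Pbxip1 (-2.20), Cdc14a (-2.11) and Adgb (-2.64). Without vehicle mouse 1, vehicle mouse 3 or FGF1 mouse 1 none of the differences between these labels was called.

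Between Agrp neurons and unmapped neurons the effect was larger in Agrp neurons for Hcrt (5.07), Lcorl (1.95), Kcnq3 (2.04), Wbscr17 (1.84), Pcdh15 (1.46) and Adam12 (3.01). It was lower there for Ntng1 (-1.95) and Trpm3 (-1.83). Hcrt, the orexin gene, marks another neuron type and was below the low-count filter within Agrp neurons alone.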

How the results depend on the processing

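Leaving out vehicle mouse 1 lowered most counts of called genes, and the cause was not tested. Over single left-out mice the called genes ranged from 0 to 50 over all nuclei, 72 to 378 in tanycytes, 175 to 291 in ependymal cells, 0 to 116 in astrocytes, 4 to 123 in VLMC, 0 to 21 in COP, 0 to 36 in oligodendrocytes, 0 to 101 in n29.Nr5a1/Adcyap1, 0 to 22 in Agrp neurons, 0 to 37 in n06.Oxt, 0 to 5 in unmapped neurons, 0 to 15 in Glu5, 0 to 14 in n23.Sst/Unc13c, 0 to 3 in microglia, Glu6 and GABA15, 0 to 2 in n16.Rgs16/Vip and n02.Gm8773/Tac1, and 0 to 1 in Glu4. In VLMC, n06.Oxt, n02.Gm8773/Tac1, GABA15, Glu4 and Glu6 a group had 2 mice, so leaving out 1 of them left a single mouse whose spread was taken to be that of the other group. Called list members ranged from 0 to 30 over all nuclei, 32 to 116 in tanycytes, 0 to 49 in astrocytes, 3 to 53 in VLMC, 0 to 9 in Agrp neurons and 0 to 12 in oligodendrocytes. Differences called ranged from 0 to 1 (Day 1 against Day 5, all nuclei), 2 to 19 (the same, tanycytes), 0 to 8 (tanycytes against astrocytes), 0 to 1 (ependymal cells against astrocytes) and 12 to 48 (Agrp against unmapped neurons).

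With DESeq2 the counts were 248 over all nuclei, 27 in unmapped neurons, 40 in n29.Nr5a1/Adcyap1, 17 in Agrp neurons, 15 in VLMC and 1 in Glu5, with 82 list members over all nuclei. With RLE scaling they were 4 in unmapped neurons and 16 in n29.Nr5a1/Adcyap1, and the differences 5 (Day 1 against Day 5, tanycytes), 6 (tanycytes against astrocytes) and 3 (ependymal cells against astrocytes). Without the low-count filter they were 563 in tanycytes, 214 in astrocytes, 201 in n29.Nr5a1/Adcyap1, 66 in oligodendrocytes, 35 in Agrp neurons, 34 in COP, 24 in Glu5, 15 in microglia, 10 in n16.Rgs16/Vip, 8 in unmapped neurons, n23.Sst/Unc13c and n06.Oxt, and 2 in Glu4, Glu6 and GABA15. List members were then 152 in tanycytes, 68 in astrocytes, 28 in oligodendrocytes and 17 in Agrp neurons, and differences 39, 152 and 2 between days in tanycytes, astrocytes and Agrp neurons, 17 for tanycytes against astrocytes and 3 for ependymal cells against astrocytes. After thinning to the lowest total they were 111 in tanycytes, 50 in astrocytes, 10 in oligodendrocytes and VLMC, 19 in Agrp neurons, 2 in n29.Nr5a1/Adcyap1 and n06.Oxt and 0 in COP, with list members of 43 in tanycytes, 23 in astrocytes, 4 in VLMC and 5 in oligodendrocytes. The 5% limit gave 203 in astrocytes, and at least 20 nuclei per mouse gave 0 genes and 0 list members in Agrp neurons. The 5% limit could not be run in VLMC, nor the 20-nuclei minimum in Glu4, Glu6, ependymal cells, n02.Gm8773/Tac1, VLMC and GABA15.

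Deviations from the group mean correlated over all nuclei by -0.183, -0.114 and 0.381 between the mice numbered 1, 2 and 3. Between mice of the same deposited batch (3, 4 and 5) the values were -0.399, -0.038 and -0.524. These few correlations do not settle whether the numbers or the batches pair the samples. With the replicate number as a block the counts were 10 over all nuclei, 1 in unmapped neurons, Glu5 and microglia, 23 in n29.Nr5a1/Adcyap1, 5 in oligodendrocytes and 0 in n06.Oxt, with list members of 7 over all nuclei, 4 in VLMC and 2 in oligodendrocytes. With the deposited batch as a block, chosen after seeing the data, they were 0 over all nuclei, in oligodendrocytes and in COP, 114 in tanycytes, 38 in astrocytes, 2 in n29.Nr5a1/Adcyap1, 9 in n06.Oxt and 3 in VLMC, with list members of 45 in tanycytes, 21 in astrocytes, 2 in VLMC and 0 over all nuclei and in oligodendrocytes.

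Differences of label shares (FGF1 minus vehicle, percentage points) ranged over left-out mice from -0.103 to 0.413 in tanycytes, -0.534 to 1.26 in astrocytes and -0.541 to 0.0852 in ependymal cells. The sign turned in tanycytes without FGF1 mouse 1 (-0.0213), without vehicle mouse 2 (-0.103) and under the 5% limit (-0.651), in ependymal cells without FGF1 mouse 1 (0.0852) and without vehicle mouse 3 (0.0298), and in astrocytes without FGF1 mouse 1 (-0.534). Single genes that turned, none of them called, were Fgfr2 in astrocytes (-0.27 to 0.23 on the log2 scale over left-out mice, and 0.01 without FGF1 mouse 1), Fgfr3 in tanycytes (-0.12 to 1.25), and Agrp (-0.12 to 0.97) and Npy (-0.49 to 0.67) in Agrp neurons.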
